A study of Homo sapiens with 18 samples.

Results

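The G1 cyclins and the kinases they switch on were followed in MDA-MB-231, a long-used cell line from a triple-negative breast tumour. The members were taken by name and comprised the D cyclins CCND1, CCND2 and CCND3, the E cyclins CCNE1 and CCNE2, the kinases CDK2, CDK4 and CDK6, and the phosphatase CDC25A. They are 9 of the 62703 genes in each file, and all 9 were found and passed the filter on low counts. Polyadenylated RNA was sequenced in 10 distinct libraries, 2 in each of 5 groups. In the knockdown experiment, cells carried a control hairpin (Control shRNA), an EZH2 hairpin (shEZH2) or an E2F1 hairpin (shE2F1), with 1 hairpin sequence per target. All 3 groups were exposed to lentivirus for 24 h and then kept in puromycin at 2 ug/ml for 72 h. In the drug experiment, cells were kept for 72 h in the solvent DMSO or in GSK126, a blocker of the methyltransferase site of EZH2, at 1 uM. EZH2 is the catalytic subunit of the Polycomb complex PRC2, and E2F1 is a factor that drives transcription of genes for S phase. Nothing in the sources states that the 2 libraries of a group came from separate cultures, so the p-values measure the spread between these libraries, which may be technical.

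D cyclins bind CDK4 and CDK6 when growth signals reach a cell in G1, and these kinases begin to phosphorylate the retinoblastoma protein RB1. Phosphorylated RB1 releases E2F factors, which turn on the E cyclins and CDC25A. Cyclin E then activates CDK2, CDC25A removes the inhibitory phosphates from CDK2, and the cell enters S phase. In breast tissue, cyclin D1 is the D cyclin best known for driving proliferation, and inhibitors of CDK4 and CDK6 are used against breast cancers that express the estrogen receptor.

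Depth ran from 13198932 to 20055550 expected counts per library, so that a gene with no counts could still be present at up to 0.150 to 0.227 CPM, as far as counting error goes. CPM are counts relative to the library total after scaling by TMM. The hairpins lowered their targets, EZH2 from 153 and 181 to 52.7 and 44.8 CPM in shEZH2 (log2 change -1.79 ± 0.12 SE, adjusted p = 2.40e-06) and E2F1 from 143 and 139 to 26.0 and 22.5 CPM in shE2F1 (-2.54 ± 0.24, adjusted p = 1.52e-05). E2F1 also fell in shEZH2, to 62.5 and 32.3 CPM (-1.59 ± 0.23, adjusted p = 0.000172). The markers listed for the line were high in all 10 libraries (VIM at 1185 to 2860 TPM, CD44 at 446 to 659 TPM), with PGR listed at 0 in 10 and ESR1 at up to 0.17 TPM. Of the 8 luminal markers, however, KRT19 reached 246 to 847 TPM and EPCAM 12.4 to 37.7 TPM. GATA3 stood at 5.86 to 13.75 TPM and TFF1 at 0.48 to 19.82 TPM. CDH1 lay at 0.26 to 4.5 TPM and FOXA1 at 0 to 0.24 TPM. ERBB2, the gene of HER2, was read at 20 to 35.62 TPM. The summed level of the 6 markers of the line was 2986 and 2768 TPM in shEZH2 against 5324 and 5379 TPM in control, and that of the luminal markers 292 and 289 TPM against 696 and 519 TPM. Their part in the results of shEZH2 was not tested. Fewer cells that express a gene and less of its RNA per cell cannot be told apart in these bulk libraries.

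Transcript levels of the 9 genes, compared per length in the TPM of the authors, spanned several orders of magnitude. In control cells CCND1 stood first at 336 and 348 TPM, followed by CDK4 at 157 and 153, CCND3 at 94.6 and 88.3, CDK2 at 74.0 and 60.0 and CDC25A at 28.5 and 37.6 TPM. The next in order, CDK6 at 15.3 and 18.5 and CCNE2 at 14.3 and 17.7 TPM, overlapped each other, with CCNE1 below them at 11.6 and 14.3 TPM. CCND2 was far below all others, at 0.09 and 0.07 TPM. CCND1 led in every library and CCND2 came last in every library, while the ranks between them differed among the groups. CDK6 and CCNE1 changed places between DMSO and GSK126, with ranges that overlapped in each of these groups. CCND3 passed CDK4 in both knockdowns. CDK6, at 41.1 and 37.4 TPM, rose to the level of CDK2, at 39.8 and 33.7 TPM, in shEZH2, and these ranges overlapped. In shE2F1 CDK6 dropped behind both E cyclins, to 7.84 and 9.71 TPM.

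**Figure D1:**
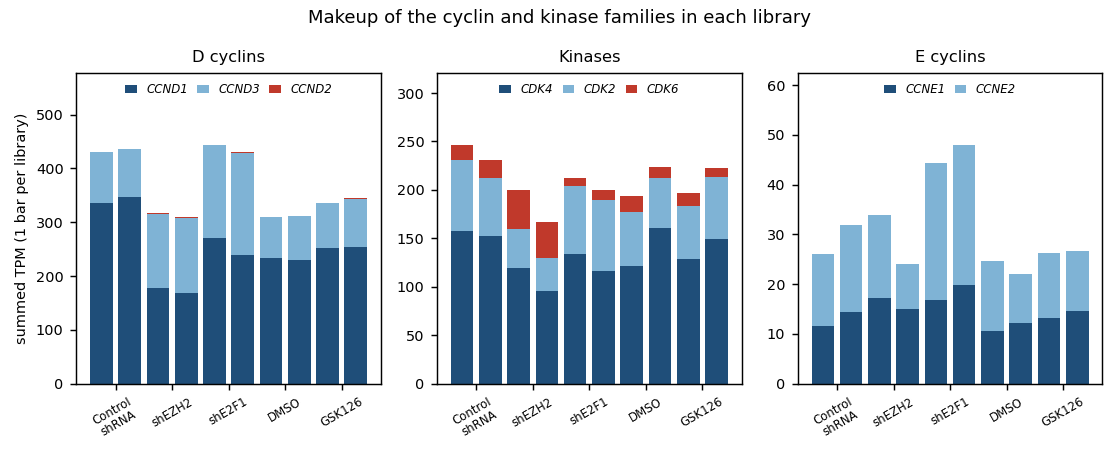
Summed TPM of the D cyclins, the kinases and the E cyclins (vertical axes, each from 0), with 1 bar per library and 2 bars per group. CCND1 makes up 78.0% and 79.7% of the D cyclin bar in control and 54.6% to 60.9% in the 4 knockdown libraries, and CDK6 is tallest in shEZH2.

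The makeup of each family followed from these levels, as a description with no test. The D cyclins summed to 431 and 436 TPM in control, to 317 and 309 TPM in shEZH2 and to 444 and 430 TPM in shE2F1. The sum was therefore lower in shEZH2 than in control, whereas the range in shE2F1 enclosed that in control. CCND1 gave 78.0% and 79.7% of that sum in control, 56.4% and 54.6% in shEZH2 and 60.9% and 55.6% in shE2F1, and most of the remainder was CCND3. CDK6 gave 8.89% and 10.8% of the summed CDK4 and CDK6 in control, 25.6% and 28.1% in shEZH2 and 5.53% and 7.71% in shE2F1. In the drug experiment CCND1 gave 75.4% and 73.8% of the D cyclins in DMSO and 74.9% and 73.5% in GSK126, which overlapped. CCND2 gave 0.0709% and 0.0547% in DMSO and 0.226% and 0.218% in GSK126, which did not.

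Promoters were looked up because D cyclin kinases and CDC25A sit on either side of E2F. RefSeq entries on GRCh38.p14 (250 bases before to 50 after a start site) were matched for 5 members, with 8 promoters in all. They were searched on both strands for the E2F element (TTTCCCGC, TTTCGCGC, TTTGCCGC or TTTGGCGC), the E-box CACGTG, which MYC binds, and the CHR element TTTGAA. The E2F element was in 3.315% of 35116 promoters of that length, the E-box in 7.256% and the CHR element in 15.16%. None of these letters were in the promoter of CCNE1, the 3 of CCND3 or the other of CDK6. The 3 promoters with a match are shown 5′ to 3′ on the strand of the gene, with the matching bases in capitals.
CDC25A (chr3:48188368-48188667, minus strand, E2F element first base at -44): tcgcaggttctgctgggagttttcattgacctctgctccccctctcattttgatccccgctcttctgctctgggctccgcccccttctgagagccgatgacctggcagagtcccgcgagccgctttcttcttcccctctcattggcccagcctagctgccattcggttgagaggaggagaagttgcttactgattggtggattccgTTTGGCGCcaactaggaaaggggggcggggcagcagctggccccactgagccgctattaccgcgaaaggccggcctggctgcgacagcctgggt
CDK4 (chr12:57752261-57752560, minus strand, E-boxes first base at -216, -196 and -101): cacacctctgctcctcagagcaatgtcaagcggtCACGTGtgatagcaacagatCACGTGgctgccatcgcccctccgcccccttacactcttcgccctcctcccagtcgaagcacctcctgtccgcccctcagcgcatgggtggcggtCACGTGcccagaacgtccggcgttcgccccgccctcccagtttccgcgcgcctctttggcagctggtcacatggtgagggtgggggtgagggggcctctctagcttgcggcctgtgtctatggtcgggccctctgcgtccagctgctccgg
CDK6 (chr7:92836524-92836823, minus strand, E-box first base at 31): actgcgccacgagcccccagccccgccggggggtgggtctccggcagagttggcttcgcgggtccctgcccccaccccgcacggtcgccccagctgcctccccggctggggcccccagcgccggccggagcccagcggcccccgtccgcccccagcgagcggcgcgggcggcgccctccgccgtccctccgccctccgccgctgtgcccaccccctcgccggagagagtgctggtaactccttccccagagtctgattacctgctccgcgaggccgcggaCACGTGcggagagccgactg
CDC25A is shown because it alone of the 5 members searched held an E2F element and its transcript did not pass after loss of E2F1 RNA. Promoters of CCND1, CCND2, CCNE2 and CDK2 were not searched. CDK4 and CDK6 each held the E-box, and their transcripts moved in the same direction in shE2F1 and in opposite directions in shEZH2, as given below. A match of letters is a description of the window and not a site of binding.

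The D cyclins moved in different directions in the knockdowns. CCND1 (cyclin D1, ENSG00000110092, chromosome 11, 69641156 to 69654474, plus strand) stood at 869 and 971 CPM in control, 378 and 404 CPM in shEZH2 and 651 and 555 CPM in shE2F1. All 4 knockdown libraries lay below both controls, and shEZH2 lay below shE2F1. CCND1 fell 2.37-fold in shEZH2 (log2 change -1.25 ± 0.10, adjusted p = 6.65e-06) and 1.53-fold in shE2F1 (-0.62 ± 0.10, adjusted p = 0.000736). The fall in shE2F1 no longer passed without shE2F1 replicate 2 (-0.51, adjusted p = 0.0199). Whether counting used the strand is not stated, and 10.4% of its exonic bases lie opposite to LTO1, which did not pass (-0.23 in shEZH2, 0.03 in shE2F1).

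CCND3 (cyclin D3, ENSG00000112576, chromosome 6, 41934934 to 42050357, minus strand) moved the other way. It stood at 110 and 110 CPM in control, 143 and 157 CPM in shEZH2 and 194 and 205 CPM in shE2F1, so that the 3 groups did not overlap. It rose 1.36-fold in shEZH2 (0.44 ± 0.09, adjusted p = 0.00174) and 1.81-fold in shE2F1 (0.85 ± 0.09, adjusted p = 3.38e-05). Without shEZH2 replicate 2 the rise in shEZH2 missed the threshold (0.39, adjusted p = 0.0156).

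CCND2 (cyclin D2, ENSG00000118971, chromosome 12, 4269771 to 4305353, plus strand) was read at 7 and 5 counts in the control libraries. These were 0.371 and 0.300 CPM in control, 3.47 and 4.15 CPM in shEZH2 and 0.623 and 0.647 CPM in shE2F1. The shEZH2 libraries stood well above the rest, at 46 and 72 counts. CCND2 rose 11.01-fold in shEZH2 (3.46 ± 0.40, 95% interval 2.57 to 4.35, adjusted p = 4.50e-05), and in shE2F1 the estimate was 0.89 ± 0.48 (adjusted p = 0.151). No control library reached the 0.565 CPM of the filter on low counts, so that CCND2 was tested through the knockdown libraries. Even in shEZH2 its level of 0.92 and 1.09 TPM was 0.290% and 0.352% of the D cyclin sum. A gene on the same strand, ENSG00000285901, covers 12.5% of its exonic bases, and reads may have been divided between them.

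**Figure D2:**
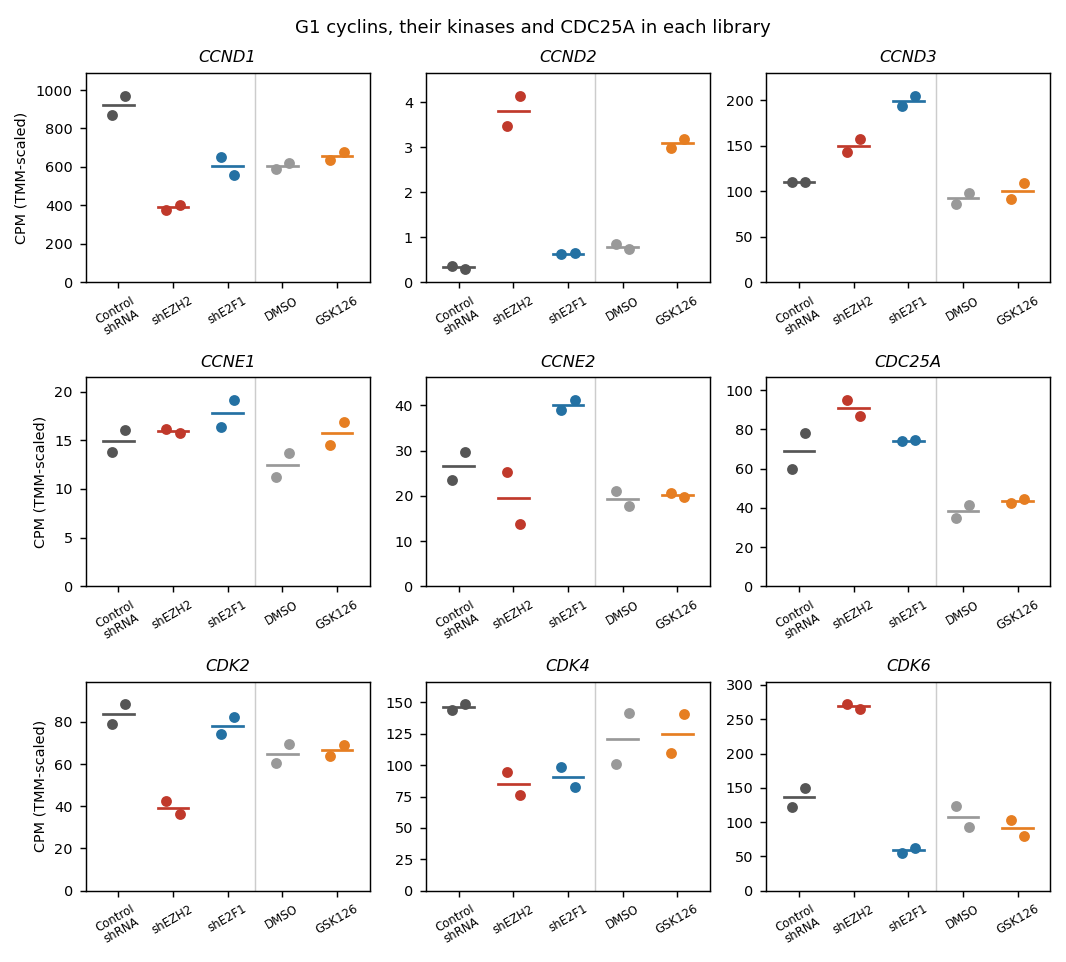
TMM-scaled CPM (vertical axes from 0, a scale per gene) of the 9 genes in each library (points), with group means (bars), for the knockdown groups left of the grey line and the drug groups right of it. CDK6 separates the 3 knockdown groups at 123 and 149, 272 and 265, and 54.9 and 62.8 CPM, and CCND2 is raised in shEZH2 and GSK126 over their own controls.

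All 3 kinases passed in shEZH2, 1 higher and 2 lower, where 20.2% of all genes tested rose and 21.5% fell. In shE2F1 2 of them passed and were lower, where 13.6% of all genes rose and 16.5% fell. CDK6 (ENSG00000105810, chromosome 7, 92604921 to 92836573, minus strand), a partner of the D cyclins, stood at 123 and 149 CPM in control, 272 and 265 CPM in shEZH2 and 54.9 and 62.8 CPM in shE2F1. The 3 groups lay apart, with control in the middle. CDK6 rose 1.96-fold in shEZH2 (0.97 ± 0.11, adjusted p = 3.92e-05) and fell 2.32-fold in shE2F1 (-1.22 ± 0.11, adjusted p = 1.60e-05). Correction for GC content and length left 0.51 (adjusted p = 0.00131) of the rise and -1.17 (adjusted p = 9.17e-06) of the fall. Its longest transcript, of 11663 bases with 39.7% GC, is the longest of the 9 genes.

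CDK4 (ENSG00000135446, chromosome 12, 57747727 to 57756013, minus strand), the other D cyclin kinase, stood at 144 and 149 CPM in control, 94.6 and 76.0 CPM in shEZH2 and 98.4 and 82.5 CPM in shE2F1. Both knockdowns lay below control and overlapped each other. CDK4 fell 1.73-fold in shEZH2 (-0.79 ± 0.12, adjusted p = 0.000325) and 1.62-fold in shE2F1 (-0.70 ± 0.12, adjusted p = 0.000990). Without shE2F1 replicate 2 the latter missed the threshold (-0.58, adjusted p = 0.0235). Of its exonic bases 44.3% lie opposite to TSPAN31, which fell in shEZH2 (-2.03 ± 0.30, adjusted p = 0.000248) from 10.6 and 7.38 to 3.01 and 1.56 CPM and stood at 8.68 and 7.93 CPM in shE2F1 (-0.13 ± 0.26, adjusted p = 0.722). TSPAN31 was read below CDK4 in every library. Reads may have been divided between the 2 genes, and the part of this in the CDK4 result was not tested.

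CDK2 (ENSG00000123374, chromosome 12, 55966781 to 55972789, plus strand), the kinase of the E cyclins, stood at 79.1 and 88.5 CPM in control, 42.3 and 36.5 CPM in shEZH2 and 74.3 and 82.3 CPM in shE2F1. The shEZH2 libraries lay below all others, and shE2F1 overlapped control. CDK2 fell 2.15-fold in shEZH2 (-1.10 ± 0.11, adjusted p = 2.20e-05). In shE2F1 the estimate was -0.11 ± 0.11 (95% interval -0.35 to 0.13, adjusted p = 0.455). The fall in shEZH2 lay within 2-fold without shEZH2 replicate 2 (-0.98, adjusted p = 0.000268) and once GC content and length were corrected for (-0.9997, adjusted p = 3.58e-05). Of its exonic bases 16.8% lie opposite to PMEL and an unnamed gene, and PMEL fell in shEZH2 too (-1.67 ± 0.40, adjusted p = 0.00457) at 2.07 and 2.34 CPM in control.

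The E cyclins and CDC25A, whose genes are textbook targets of E2F, did not pass in either knockdown. CCNE1 (cyclin E1, ENSG00000105173, chromosome 19, 29811991 to 29824312, plus strand) stood at 13.8 and 16.0 CPM in control, 16.2 and 15.7 CPM in shEZH2 and 16.4 and 19.1 CPM in shE2F1. The estimates were 0.09 ± 0.15 in shEZH2 (95% interval -0.24 to 0.41, adjusted p = 0.648) and 0.24 ± 0.14 in shE2F1 (95% interval -0.07 to 0.56, adjusted p = 0.194). Only in shE2F1 did its libraries lie apart from control.

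CCNE2 (cyclin E2, ENSG00000175305, chromosome 8, minus strand) was the least even member within a group. It stood at 23.5 and 29.7 CPM in control, 25.2 and 13.9 CPM in shEZH2 and 38.9 and 41.2 CPM in shE2F1. The shE2F1 libraries were the highest of the 10, and the shEZH2 libraries differed from each other by more than the controls did. The estimates were -0.47 ± 0.23 in shEZH2 (adjusted p = 0.102) and 0.58 ± 0.22 in shE2F1 (adjusted p = 0.0474). Without shEZH2 replicate 1 the former passed (-0.95, adjusted p = 0.00118). With only the 4 libraries of the comparison in the fit the latter passed (0.59, adjusted p = 0.00343). Of its exonic bases 37.1% lie opposite to INTS8, at 20.7 and 22.9 CPM in control and 17.2 and 15.9 CPM in shEZH2 (-0.41 ± 0.14, adjusted p = 0.0263).

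CDC25A (ENSG00000164045) lies on chromosome 3 from 48157146 to 48188417, minus strand. It stood at 59.8 and 78.2 CPM in control, 95.02 and 86.7 CPM in shEZH2 and 74.0 and 74.6 CPM in shE2F1. The shEZH2 libraries were the highest of the 10, and shE2F1 lay between the controls. The estimates were 0.39 ± 0.12 in shEZH2 (95% interval 0.11 to 0.66, adjusted p = 0.0216) and 0.10 ± 0.12 in shE2F1 (95% interval -0.17 to 0.37, adjusted p = 0.539). Without control replicate 2 the former passed (0.59, adjusted p = 0.00145).

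**Figure D3:**
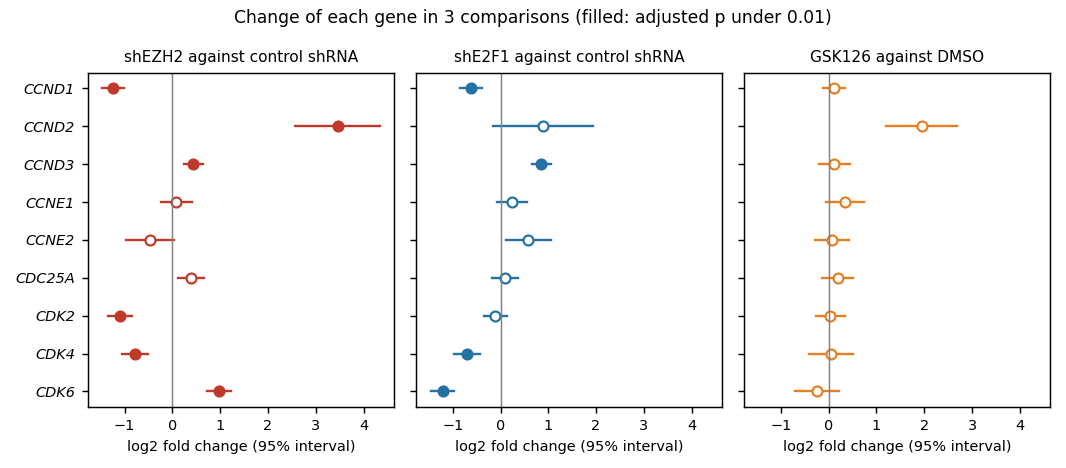
log2 fold change (horizontal axis) of each gene (vertical axis) with its 95% interval in shEZH2, shE2F1 and GSK126, each against its own control. Filled circles passed at an adjusted p under 0.01, which were 6 genes in shEZH2, 4 in shE2F1 and 0 in GSK126.

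In all, 6 of 9 genes passed in shEZH2 at an adjusted p under 0.01. CCND2, CCND3 and CDK6 rose and CCND1, CDK2 and CDK4 fell, 3 in each direction, where 20.2% of all genes tested rose and 21.5% fell. Beyond 2-fold there were 3 (CCND1, CCND2 and CDK2), against 18.2% of all genes tested. In shE2F1 4 of 9 passed, with CCND3 higher and CCND1, CDK4 and CDK6 lower, where 13.6% of all genes rose and 16.5% fell. CDK6 was the 1 gene beyond 2-fold, against 11.6% of all genes, a share near that background. The median log2 change of the 9 genes was 0.09 in shEZH2 and 0.10 in shE2F1, beside -0.02 and -0.000492 over all genes tested. Both comparisons use the same control libraries.

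The hairpins were therefore also compared directly with each other, in the same fit of 6 libraries, where the controls enter the estimate of the spread alone. Relative to shE2F1, shEZH2 gave higher CDK6 (4.55-fold, log2 difference 2.19 ± 0.12, adjusted p = 2.60e-07) and CCND2 (5.94-fold, 2.57 ± 0.36, adjusted p = 0.000118). It gave lower CCND1 (-0.63 ± 0.10, adjusted p = 0.000369), CDK2 (-0.997 ± 0.11, adjusted p = 2.73e-05), CCNE2 (-1.05 ± 0.22, adjusted p = 0.00198) and CCND3 (-0.41 ± 0.09, adjusted p = 0.00213). These were 2 of 9 genes higher and 4 lower, where 23.3% of all genes tested were higher and 23.2% lower. CCND2, CCNE2 and CDK6 differed by more than 2-fold, against 23.3% of all genes. CDK4 did not pass (-0.09 ± 0.12, 95% interval -0.37 to 0.18, adjusted p = 0.542), and neither did CCNE1 (-0.16 ± 0.15, adjusted p = 0.364) or CDC25A (0.29 ± 0.12, adjusted p = 0.0671). The difference in CCNE2 was -0.66 (adjusted p = 0.00715) without shEZH2 replicate 2 and missed the threshold without shE2F1 replicate 1 (adjusted p = 0.0122) or 2 (adjusted p = 0.0170). That in CCND3 shrank to -0.14 (adjusted p = 0.171) once GC content and length were corrected for. Its size stayed near that reported but missed the threshold without shEZH2 replicate 1 (-0.35, adjusted p = 0.0222), shE2F1 replicate 1 (-0.46, adjusted p = 0.0154) or shE2F1 replicate 2 (-0.37, adjusted p = 0.0373).

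None of the 9 transcripts passed in GSK126 against DMSO in the fit without a block, and CCND2 had the largest estimate. With the replicate number as a block, CCND1, CCND2 and CDK6 passed. That fit left 1 residual degree of freedom, and the labels do not tie the numbers to a batch. CCND2 stood at 0.852 and 0.735 CPM under DMSO against 2.99 and 3.18 CPM under GSK126, or 17 and 13 against 51 and 54 counts. The groups did not overlap, and the estimate was 1.94 ± 0.31 (95% interval 1.21 to 2.68). The quasi-likelihood p of edgeR for CCND2 was 0.000569 before adjustment. CCND2 did not pass after adjustment across all genes tested (adjusted p = 0.731, or 0.312 with DESeq2). No gene of the 14632 tested passed here (0%) by edgeR without a covariate, while 3.94% had an unadjusted p under 0.05. CCND2 was the 1 of 9 members with such a p. DESeq2 passed 14 genes, none of them a member.

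CCND1 was read at 591 and 622 CPM under DMSO against 636 and 678 CPM under GSK126, a narrow gap with no overlap (0.12 ± 0.10, 95% interval -0.12 to 0.35). CDK6, at 124 and 92.1 against 103 and 79.8 CPM, overlapped (-0.25 ± 0.19, 95% interval -0.72 to 0.22). CDK2 lay at 60.3 and 69.7 against 63.8 and 69.3 CPM (0.03 ± 0.12), and CDK4 at 101 and 141 against 109 and 141 CPM (0.05 ± 0.19). Neither kinase separated the groups. The largest estimate after CCND2 was that of CCNE1, 11.2 and 13.7 against 14.5 and 16.9 CPM (0.34 ± 0.17, 95% interval -0.06 to 0.74). The 95% intervals of CCND3 (estimate 0.12), CCNE2 (0.06) and CDC25A (0.18) held 0.

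The effect of the EZH2 hairpin and that of the EZH2 inhibitor were set against each other in a fit of all 10 libraries. The difference passed for CCND1 (-1.35 ± 0.16, adjusted p = 9.09e-05), CDK2 (-1.12 ± 0.18, adjusted p = 0.000552) and CDK6 (1.23 ± 0.23, adjusted p = 0.00149). These were 1 of 9 genes in the higher direction and 2 in the lower, where 9.35% and 11.6% of all genes passed, and all 3 exceeded 2-fold, where 13.8% did. Relative to their own controls, CCND1 and CDK2 thus stood lower, and CDK6 higher, under the hairpin than under the inhibitor. The difference in CDK6 was 0.74 with GC content and length corrected for (adjusted p = 0.00137), 0.99 without DMSO replicate 1 (adjusted p = 0.00499) and short of the threshold without control replicate 1 (1.09, adjusted p = 0.0108). That in CDK2 was -0.99 after the same correction (adjusted p = 0.000320).

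CCND2 was higher in both experiments and its difference did not pass (1.53 ± 0.51, 95% interval 0.42 to 2.63, adjusted p = 0.0329). CDK4 did not pass either (-0.83 ± 0.24, adjusted p = 0.0194), although it did without DMSO replicate 2 (-1.09, adjusted p = 0.00332) or without GSK126 replicate 1 (-1.002, adjusted p = 0.00615). CCNE2, at -0.52 ± 0.31 (adjusted p = 0.217), passed without shEZH2 replicate 1 (-1.004, adjusted p = 0.00991). CCND3 (0.33 ± 0.17), CCNE1 (-0.24 ± 0.23) and CDC25A (0.21 ± 0.19) did not pass. Virus and puromycin are named for all 3 knockdown groups, the control hairpin included, and for neither drug group. Each effect was taken against its own control, so what shEZH2 shares with the control hairpin drops out. A different response to loss of EZH2 in transduced and selected cells cannot be told apart from the difference between hairpin and inhibitor.

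The other 39 genes of the G1/S pathway were taken from lists by role, and those named below without passing 2-fold in a knockdown were chosen after their values were seen. CDKN2A and CDKN2B, the INK4 inhibitors of CDK4 and CDK6, were read at 0 counts in all 10 libraries, and the remaining 37 were tested. In shEZH2 9 of them rose and 10 fell, where 20.2% of all genes rose and 21.5% fell, and 8 were beyond 2-fold (2 higher, 6 lower), a share near the 18.2% of all genes. In shE2F1 6 rose and 13 fell, where 13.6% of all genes rose and 16.5% fell. The 8 beyond 2-fold were all lower, where 11.6% of all genes tested passed beyond 2-fold in either direction. E2F1, the target of that hairpin, is among them, and without it 12 fell and 7 were beyond 2-fold. In GSK126 0 passed. The median log2 change of the 37 was -0.05 in shEZH2 and -0.18 in shE2F1.

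Among the 5 CDK inhibitors tested, CDKN2C (p18, an INK4 inhibitor) fell in shEZH2 (-1.16 ± 0.09, adjusted p = 5.74e-06) and in shE2F1 (-1.25 ± 0.09, adjusted p = 4.15e-06). It was the 1 inhibitor that passed in shEZH2, where 20.2% of all genes rose and 21.5% fell. In shE2F1 CDKN2D (-1.28) and CDKN1B (p27, -0.99) fell and CDKN1A (p21, 0.41) rose, where 16.5% of all genes fell and 13.6% rose. CDKN1C, at 14.7 and 8.10 CPM in control, 17.9 and 27.5 CPM in shEZH2 and 5.95 and 4.58 CPM in shE2F1, differed between the hairpins (2.10 ± 0.29, adjusted p = 0.000111). Of the 3 pocket proteins, which hold E2F factors in check, RBL2 rose in both (1.09 and 0.74) and RBL1 in shE2F1 (0.63), and RB1 itself passed in neither (-0.14 and -0.14).

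The activator E2F2 fell in shEZH2 (-2.64 ± 0.32, adjusted p = 5.97e-05) and was at 0.02 ± 0.25 in shE2F1, while E2F3 (0.53) and TFDP2 (0.64) rose in shEZH2. CCNH and MNAT1, subunits of the kinase that activates CDKs, fell in shEZH2 (-0.54 and -0.56). Its catalytic subunit CDK7 rose in shE2F1 (0.90), where CCNH fell (-0.47).

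Of the 5 genes that place, remove or guard the inhibitory phosphates of CDKs, 4 passed in shEZH2, 1 higher and 3 lower. There 20.2% of all genes tested rose and 21.5% fell. The kinase WEE1 rose (1.02 ± 0.11, adjusted p = 3.46e-05) and the kinase PKMYT1 fell (-1.82 ± 0.20, adjusted p = 3.15e-05), as did the phosphatases CDC25B (-1.03) and CDC25C (-0.49). In shE2F1 CDC25C alone of the 5 passed (-1.03 ± 0.14, adjusted p = 0.000147), where 13.6% of all genes rose and 16.5% fell.

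Among 10 genes for turnover of G1 cyclins, CDC25A and p27, 5 rose and 0 fell in shEZH2 (20.2% and 21.5% of all genes), and 2 rose and 2 fell in shE2F1 (13.6% and 16.5% of all genes). SKP2, the F-box protein that marks p27 for destruction, stood at 58.2 and 70.0 CPM in control, 125 and 129 CPM in shEZH2 and 31.6 and 32.4 CPM in shE2F1. The groups lay apart with control in the middle, the same order as for CDK6. SKP2 rose in shEZH2 (0.97 ± 0.10, adjusted p = 2.87e-05) and fell in shE2F1 (-1.01 ± 0.11, adjusted p = 3.91e-05), and the direct difference was 1.98 ± 0.11 (adjusted p = 3.02e-07). Its cofactor CKS1B fell in shE2F1 (-1.09 ± 0.12, adjusted p = 4.08e-05). AMBRA1, which directs the destruction of D cyclins, rose in shEZH2 (0.60).

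Of the 5 later cyclins and CDK1, 2 fell in shEZH2 and 4 in shE2F1, where 21.5% and 16.5% of all genes fell. CCNB1 fell in both (-1.28 ± 0.11, adjusted p = 7.85e-06, and -1.26 ± 0.11, adjusted p = 1.08e-05), and CCNB2 fell beyond 2-fold in shE2F1 (-1.01). MYC, an inducer of D cyclins and CDK4, stood at 96.1 and 107 CPM in control, 122 and 126 CPM in shEZH2 and 50.01 and 60.6 CPM in shE2F1. It fell in shE2F1 (-0.88 ± 0.11, adjusted p = 0.000104) and did not pass in shEZH2 (0.27 ± 0.11, adjusted p = 0.0499).

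**Figure D4:**
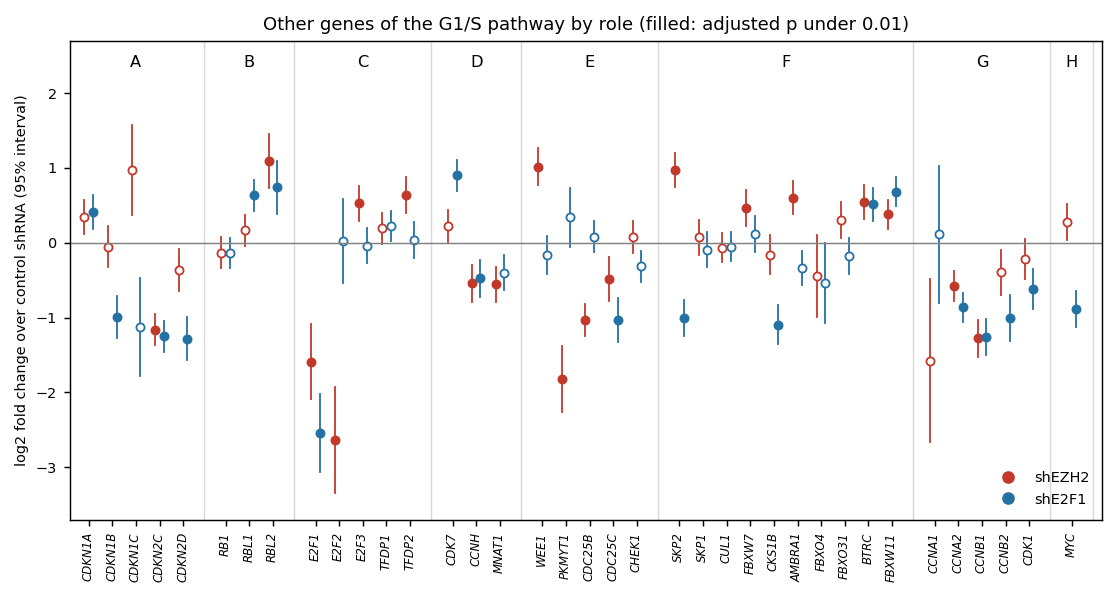
log2 fold change over control with its 95% interval (vertical axis) of the 37 pathway genes tested (horizontal axis) in shEZH2 and shE2F1, with filled circles at an adjusted p under 0.01. The roles are A CDK inhibitors, B pocket proteins, C E2F activators and DP partners, D CDK-activating kinase, E inhibitory phosphorylation, F turnover, G later cyclins and CDK1, and H MYC, and SKP2 at the left of F shows values of 0.97 and -1.01.

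The genes with the most similar profile over the 10 libraries were found by the root mean square difference of mean-centred log2 CPM, among 9265 genes (9266 for CCND2) with a mean of at least 200 counts. CCND1 ran closest to KIF23 (0.115) and KNSTRN (0.124), which act in mitosis, where CCND1 itself varied by 0.399 around its mean. CDK2 ran closest to DESI1 (0.0683) and GLA (0.0739), and CDK6 to DICER1 (0.138) and SUV39H2 (0.182). For CCND2 the nearest, NNMT (0.459) and IL1RAP (0.588), lay further off, against a variation of 1.23.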

How the data were processed

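Poly(A)-selected RNA of MDA-MB-231 was sequenced with a directional kit. The 18 sample records held 10 distinct libraries, because 8 records hold the same values as another, and repeats were dropped. The submitters' processing notes name STAR 2.7.2b and RSEM 1.3.1, and the methods name hg38 with Ensembl release 108. The deposited files hold RSEM expected counts, in which a read that fits several genes is divided, and TPM, both made by the authors per library. Of 62703 gene identifiers, 99.88% were found in GENCODE 44, the source of names and GRCh38 coordinates.

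Expected counts were rounded and tested in R 4.3.3 with edgeR 4.0.16 (filterByExpr with a minimum count of 10, TMM, quasi-likelihood F-test, adjustment by Benjamini-Hochberg across the genes in the fit). A joint fit took the 6 knockdown libraries (15373 genes), another the 4 drug libraries (14632 genes) and a last all 10 for the difference of effects (15773 genes), with no covariate. A change passed at an adjusted p under 0.01, and the threshold on fold was 2, as in the study. Errors are standard errors of the log2 change, and intervals are at 95%. TPM entered no test. CPM printed were scaled by TMM over the 10 libraries. The pipeline was tested on simulated data. DESeq2 1.42.0, the tool of the study, its size factors, no filter, other sets of libraries, a looser threshold, a correction on splines of GC content and length, the replicate number as a block and leaving out each replicate were run as alternatives.

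The 9 genes are named in every comparison. Pathway genes from lists by role are named where they passed 2-fold in a knockdown, and others from these lists were named after their values were seen. Members and lists were chosen with earlier results of these data known. Promoters are those of RefSeq on GRCh38.p14. The members whose promoters were not searched (CCND1, CCND2, CCNE2 and CDK2) are named without one.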

Additional observations from a re-analysis of the deposited data

How the results depend on the processing

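The 16 changes of single members that passed in the knockdown comparisons kept their direction under all 192 alternatives that refitted the data or changed the samples, and stayed past the threshold in 182. At an adjusted p under 0.05 without a requirement on fold, 7 of 9 members were counted in shEZH2, 5 in shE2F1, 6 between the hairpins and 5 in the difference of hairpin and inhibitor, as were 8550, 6879, 9267 and 5780 genes in all, against 2803, 1777, 3582 and 2176 by the thresholds of the study. With GC content and length corrected, alone or with the replicate block, the difference of effects counted 1 member beyond 2-fold, and with both 5 members passed. Leaving out a replicate, the members that passed ranged from 5 to 7 in shEZH2, 2 to 4 in shE2F1 (2 without shE2F1 replicate 2), 4 to 6 between the hairpins, 0 to 0 in GSK126 and 2 to 4 in the difference, and those beyond 2-fold from 3 to 4, 1 to 1, 2 to 4, 0 to 0 and 2 to 4.

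Estimates that changed sign had not passed. Leaving out a replicate, CCNE1 ranged from -0.022 to 0.196 in shEZH2 and CDC25A from -0.086 to 0.311 in shE2F1 (lowest without control replicate 1), and CDK4 from -0.255 to 0.069 between the hairpins. In GSK126 the ranges were -0.010 to 0.244 for CCND3, -0.062 to 0.207 for CCNE2, -0.056 to 0.132 for CDK2, -0.162 to 0.297 for CDK4 and -0.449 to 0.000485 for CDK6. With GC content and length corrected, CCNE1 and CDK4 between the hairpins came to 0.028 and 0.116, and to 0.030 and 0.116 with the block. The cause was not tested.

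Depth limits CCND2 most, at 5 to 72 counts. Pairing by replicate number was examined through the correlation, over 11919 genes, of the replicate 2 minus replicate 1 difference in 2 groups, which gave r = 0.663 for DMSO and GSK126 and 0.0409 to 0.205 in the knockdown groups. With only 2 numbers and no label on a shared batch, the numbers were not taken to pair the samples, and the fits reported have no block. With the replicate as a block, 3 members passed in GSK126 (CCND1 at 0.11, CCND2 at 1.94 and CDK6 at -0.24) and 1 of them, CCND2, went beyond 2-fold, with 1 residual degree of freedom. With the block and the correction of GC content, 2 passed and 1 went beyond 2-fold. Over all genes, 68 were beyond 2-fold in GSK126 with the block, 53 with block and correction, 11 by DESeq2 and 37 to 43 without a replicate, against 0 in the fit reported, and 1164, 939, 14 and 38 to 45 passed at any fold. Genes that passed at any fold went from 4620 to between 2200 and 3977 in shE2F1 without a replicate, from 7140 to between 4655 and 6312 between the hairpins, and from 3308 to between 1581 and 3319 in the difference of effects (5177 with the block), of which 1305 to 2414 exceeded 2-fold. In the other comparisons the block added CDK4 to the differences of effects that passed (-0.84, adjusted p = 0.000538) and lost no call.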
